A study of Homo sapiens with 59 samples.

Results

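LFNG (lunatic fringe) and 9 further genes of the Notch pathway were followed in THP-1 macrophages treated with a PPARG ligand or its vehicle. The 10 genes are LFNG, MFNG, RFNG, NOTCH1, NOTCH2, JAG1, RBPJ, HES1, HES4 and HEY1, out of 16922 named genes on the array, and they are represented by 17 probes. They were chosen by name as pathway genes, and the choice rests on values of these same arrays: LFNG was selected on its rise with rosiglitazone, and HES4 on its high level on 5 arrays with an inflammatory profile. Those 2 patterns are therefore given as a description, without a test.

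THP-1 is a human monocytic leukemia line, so all values come from 1 line. In every group the cells had been differentiated with PMA, a phorbol ester, at 10 ng/ml for 40 h, and rested without PMA for 2 h. They then received 1 µM rosiglitazone (RSG), a synthetic PPARG agonist, or DMSO, and RNA was taken after 0.5, 1.5, 3, 8 or 12 h. The 10 groups of treatment and time hold 6 arrays each, except RSG at 1.5 h with 5, which gives 59 Illumina bead arrays. Per the study's methods the cells of each sample were seeded and treated on their own. Whether samples came from separate passages or days is not given in the sources used here. The p-values therefore measure the spread between these samples. For some genes and groups, replicates 1 to 3 and 4 to 6 held separate ranges, as given below, and the cause was not tested. The 6 arrays of a group may thus not be 6 independent samples.

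Notch receptors are activated by membrane-bound ligands of the Delta and Jagged families on neighboring cells. Fringe enzymes, to which LFNG, MFNG and RFNG belong, add N-acetylglucosamine to O-linked fucose on the receptor and so change which ligands it answers to. After ligand binding the receptor is cut, and its intracellular part joins the DNA-binding protein RBPJ in the nucleus, where the complex turns on repressor genes of the HES and HEY families. In macrophages the pathway is known for its cross-talk with inflammatory signaling.

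Promoter sequences of the genes on which the results turn are shown because they hold the letters TGGGAA, the RBPJ core. Whether Notch acts through these letters here was not measured. They are RefSeq windows of 300 bases (GRCh38.p14), from 250 bases before to 50 after the start of transcription, and capitals mark the RBPJ core on either strand. HES1 and HES4, which were both high on the same 5 arrays, are printed with the 2 annotated starts of LFNG.
HES1, chr3:194135898-194136197, plus strand: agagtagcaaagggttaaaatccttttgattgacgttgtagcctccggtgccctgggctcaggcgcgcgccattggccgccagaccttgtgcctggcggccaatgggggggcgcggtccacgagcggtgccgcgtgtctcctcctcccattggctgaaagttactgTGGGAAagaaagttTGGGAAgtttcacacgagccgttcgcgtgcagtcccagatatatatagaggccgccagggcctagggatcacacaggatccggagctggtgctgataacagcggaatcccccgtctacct
HES4, chr1:1000048-1000347, minus strand: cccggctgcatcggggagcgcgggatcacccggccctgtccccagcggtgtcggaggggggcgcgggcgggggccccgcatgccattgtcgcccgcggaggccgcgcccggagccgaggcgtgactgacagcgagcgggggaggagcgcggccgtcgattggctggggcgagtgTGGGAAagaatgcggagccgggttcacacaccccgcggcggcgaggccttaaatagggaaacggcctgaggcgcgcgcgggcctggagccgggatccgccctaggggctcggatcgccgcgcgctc
LFNG, upstream start, chr7:2512279-2512578, plus strand: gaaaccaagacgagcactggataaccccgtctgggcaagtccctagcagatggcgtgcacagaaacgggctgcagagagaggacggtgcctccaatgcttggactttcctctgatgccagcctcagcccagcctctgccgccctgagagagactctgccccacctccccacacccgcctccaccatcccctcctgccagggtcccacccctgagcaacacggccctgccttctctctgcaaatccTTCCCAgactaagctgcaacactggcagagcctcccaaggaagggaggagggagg
LFNG, downstream start, chr7:2517613-2517912, plus strand: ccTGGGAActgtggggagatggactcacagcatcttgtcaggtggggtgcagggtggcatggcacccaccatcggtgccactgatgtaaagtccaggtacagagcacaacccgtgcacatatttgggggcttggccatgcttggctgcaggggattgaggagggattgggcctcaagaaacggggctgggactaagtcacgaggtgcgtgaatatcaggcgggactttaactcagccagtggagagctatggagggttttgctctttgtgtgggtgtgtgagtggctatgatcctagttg

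The HES1 window held 2 cores on its plus strand, and the HES4 window and both LFNG windows held 1 each. Of the 13 windows of the 8 genes with an entry 5 held the core. The fifth is 1 of 5 RBPJ windows, with 2 cores, and the windows of RFNG, NOTCH1, NOTCH2 and JAG1 held none. In the upstream LFNG window the core lies on the opposite strand, so that the capitals read as its reverse complement, TTCCCA. The core is common, since 24% of 35116 windows of the same length held it on one strand or the other. The half-site AGGTCA, which nuclear receptors such as PPARG and RXR recognize, was present in 13.8% of all windows, and 2 copies in direct repeat spaced by 1 base in 0.0228%. Neither was found in the 13 windows, which says only that these letters are absent there. A match is a string of letters, not a measured binding site.

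All 10 genes passed the filter on dim probes. Of the 17 probes 15 were detected on at least 5 arrays (detection p under 0.01), and the brightest probe stands for each gene. Values are normalized intensities on the log2 scale, and levels of different probes are not comparable. LFNG, which lies at chr7:2512529-2529177, was read by a probe detected on 59 of 59 arrays. A second LFNG probe was detected on 35 arrays and stayed between 4.75 and 5.83, near background, and the remaining LFNG probe was detected on 2. HEY1 was detected on 12 arrays only, HES4 on 49 and HES1 on 52, and the other 6 genes on all 59.

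The arrays themselves differed. Mean raw signal ran from 318 to 1396 and 12182 to 13937 probes were detected per array. A set of 5 arrays (DMSO 12 h replicates 4 and 6, RSG 8 h replicate 1, RSG 12 h replicates 2 and 5) correlated less with the rest (medians of 0.895 to 0.931) than the other 54 did (0.959 to 0.986). On these 5, markers of inflammatory and mature dendritic cells averaged 12.4 to 13.5, against 6.74 to 8.03 on the others, with 6 of 13 measured markers detected on all arrays. Macrophage markers (10 of 10 detected on all arrays) averaged 9.73 to 9.88 against 10.5 to 11.1. Single markers differed in direction. CD14, ITGAM, CSF1R, MSR1, FCGR1A and CD163 were below every other array, and CD68, LYZ and MMP9 overlapped. SPI1 was above every other array, at 11.35 to 12.06 against 9.98 to 11.16. Markers of T, B and NK cells (2 of 9 detected on every array, the T cell gene CD3E and the NK gene KLRD1 on none) averaged 5.40 to 5.62 against 5.16 to 5.56. Of these only NCAM1 was above every other array, at 6.37 to 6.54 against 4.70 to 5.64, and the rest overlapped. In RNA from a whole culture, fewer cells of a type and less RNA per cell cannot be told apart. Each comparison is given with 59 arrays and with the 54.

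LFNG started high and fell in vehicle-treated cells over the time course, and RSG-treated cells held more of it from 1.5 h on. In DMSO the 6 arrays of 0.5 h read 9.45, 9.85, 9.75, 10.18, 10.09 and 9.99. At 1.5 h they read 10.07, 9.80, 10.01, 9.27, 9.32 and 9.38, and at 3 h 9.40, 9.14, 9.14, 10.06, 9.24 and 9.17. Up to 3 h the DMSO groups overlapped, with 1 high array at 3 h. Values are in replicate order. Replicates 1 to 3 all lay below replicates 4 to 6 at 0.5 h and above them at 1.5 h.

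By 8 h the DMSO arrays had dropped to 7.87, 7.90, 7.73, 7.28, 7.73 and 8.01, and every one lay below every earlier DMSO array. At 12 h they stood at 7.78, 8.16, 7.85, 8.29, 7.42 and 8.41, of which 8.29 and 8.41 are the 2 arrays apart. The fall was larger than the spread between replicates. From 0.5 to 8 h LFNG fell by 2.13 on the log2 scale (SE 0.21, limma adjusted p = 1.86e-11, 59 arrays), a 4.38-fold loss. From 0.5 to 12 h it fell by 1.90 (SE 0.21, adjusted p = 2.72e-10), and by 2.08 (SE 0.21, adjusted p = 6.2e-12) in the 54 arrays. The step from 0.5 to 3 h was 0.53 downward with an adjusted p of 0.106 in 59 arrays and 0.0357 in 54. The call in the 54 was lost in 7 of 12 fits that each left out 1 array, and without DMSO 3 h replicate 4 the step was 0.67 and called in both sets. These comparisons share the 0.5 h arrays. The second LFNG probe, near background, showed no called fall in limma with 59 arrays. It changed by -0.01 at 8 h (SE 0.14, adjusted p = 0.967) and -0.08 at 12 h (SE 0.14, adjusted p = 0.703), so the LFNG probes disagree. Changes over time in DMSO were frequent: the moderated F over the 5 times called 48.4% of all genes with 59 arrays and 60% with 54, so a call alone sets no gene apart. The share of all genes whose DMSO groups do not overlap between times was not counted, so such a gap sets none apart either.

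The RSG arrays of LFNG began at the same level and fell later and less. At 0.5 h they read 10.10, 10.37, 10.00, 9.85, 9.33 and 10.21, within reach of the DMSO arrays. At 1.5 h the 5 arrays stood at 10.07, 9.99, 10.49, 10.60 and 10.48, and 3 of them lay above the highest DMSO array. At 3 h the RSG arrays read 10.06, 9.06, 10.23, 10.49, 10.20 and 9.97, and all but replicate 2 were at or above 9.97.

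At 8 h LFNG on RSG arrays read 8.52, 9.22, 8.94, 9.31, 9.27 and 9.45, so that 6 of 6 lay above the highest DMSO array. The lowest of them, 8.52, is the array apart. At 12 h the values were 8.95, 8.38, 8.87, 9.54, 8.27 and 9.45. Here the groups overlapped, because the 2 RSG arrays apart (8.38 and 8.27) met the 2 DMSO arrays apart (8.29 and 8.41). Among the other 4 against 4 arrays they did not overlap.

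The difference between RSG and DMSO for LFNG was 0.09 (SE 0.21) at 0.5 h, 0.68 (SE 0.22) at 1.5 h and 0.64 (SE 0.21) at 3 h. It reached 1.37 (SE 0.21) at 8 h and 0.92 (SE 0.21) at 12 h in the 59 arrays, which are 2.58-fold and 1.90-fold. In the 54 arrays it was 1.49 (SE 0.19) at 8 h and 1.40 (SE 0.23) at 12 h. LFNG was chosen for this difference, so no test is given. As background, limma called 0.0955% of all genes at 8 h and 0.0261% at 12 h with 59 arrays, and 1.15% and 1.82% with 54. Groups did not overlap for 1.31% of genes at 8 h and 0.0174% at 12 h in the 59 arrays. In the 54 this share was 0.0434% at 0.5 h, 0.512% at 1.5 h, 0.0868% at 3 h, 2.61% at 8 h and 5.56% at 12 h, and at 12 h it included LFNG and RFNG. The group means of LFNG with RSG at 8 h (9.24, SD 0.19, n = 5) and 12 h (9.20, SD 0.34, n = 4) in the 54 arrays were below the 9.88 (SD 0.27, n = 6) of DMSO at 0.5 h. At 1.5 h (10.32, SD 0.28, n = 5) and 3 h (10.00, SD 0.49, n = 6) the RSG means were above it. The second, dim LFNG probe differed by 0.35, 0.14, -0.01, 0.07 and 0.15 (SE 0.14 each) from 0.5 to 12 h.

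**Figure D1:**
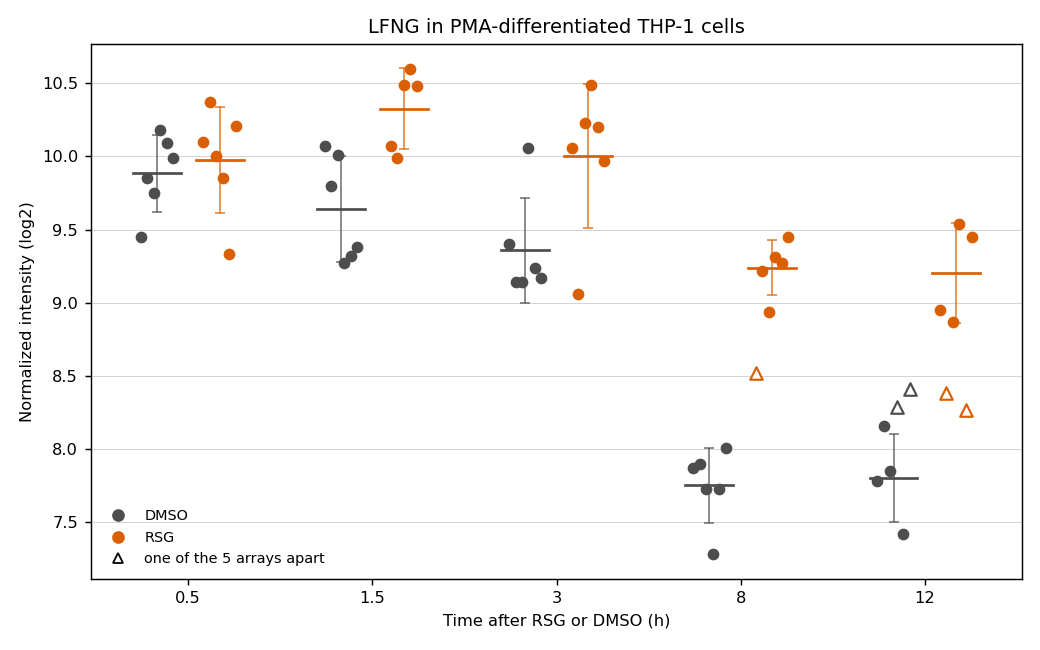
Normalized LFNG intensity (log2) on each of the 59 arrays against hours after DMSO (gray) or RSG (orange). Triangles are the 5 arrays apart, and bars give the mean and SD of the other arrays of a group. DMSO arrays lie between 7.28 and 8.41 at 8 and 12 h, and RSG arrays between 8.27 and 9.54.

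Known PPARG targets were read on the same arrays. PDK4, a kinase that restrains pyruvate dehydrogenase, and ANGPTL4, a secreted protein that blocks lipoprotein lipase, were set beside it. At 3 h PDK4 on DMSO arrays read 6.88, 4.77, 4.72, 8.21, 5.07 and 5.22, and on RSG arrays 8.45, 4.95, 8.27, 7.62, 8.00 and 7.81. DMSO replicate 4 was thus high in PDK4 and in LFNG (8.21 and 10.06), and RSG replicate 2 was low in both (4.95 and 9.06), against the other arrays of their label. ANGPTL4 did the same, with 8.15 on DMSO replicate 4 and 5.72 on RSG replicate 2. DMSO replicate 1 also held much ANGPTL4 (7.96), with LFNG at 9.40. Without DMSO replicate 4 the LFNG difference at 3 h was 0.79 (SE 0.21), and without RSG replicate 2 it was 0.83 (SE 0.21).

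On the 3 RSG arrays apart PDK4 was low as well, at 4.46 at 8 h and at 4.51 and 5.48 at 12 h, where the other RSG arrays of those times held 8.37 to 9.40. ANGPTL4 on the same 3 arrays was 6.81, 5.82 and 5.74. LFNG on these 3 arrays was below the other RSG arrays of its time. After subtraction of the group means, LFNG correlated over the 54 arrays with PDK4 (Pearson r = 0.61), NOTCH1 (r = 0.55) and ANGPTL4 (r = 0.38), as a description over arrays that share normalization and, in part, groups. The SD of PDK4 was 1.42 in DMSO and 1.29 in RSG at 3 h and 1.03 in RSG at 0.5 h. In the other groups it was 0.24 to 0.45, and ANGPTL4 was widest in the same 3 groups. These groups, with the 3 h arrays named above, thus weigh most in both r, and r without them was not computed.

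**Figure D2:**
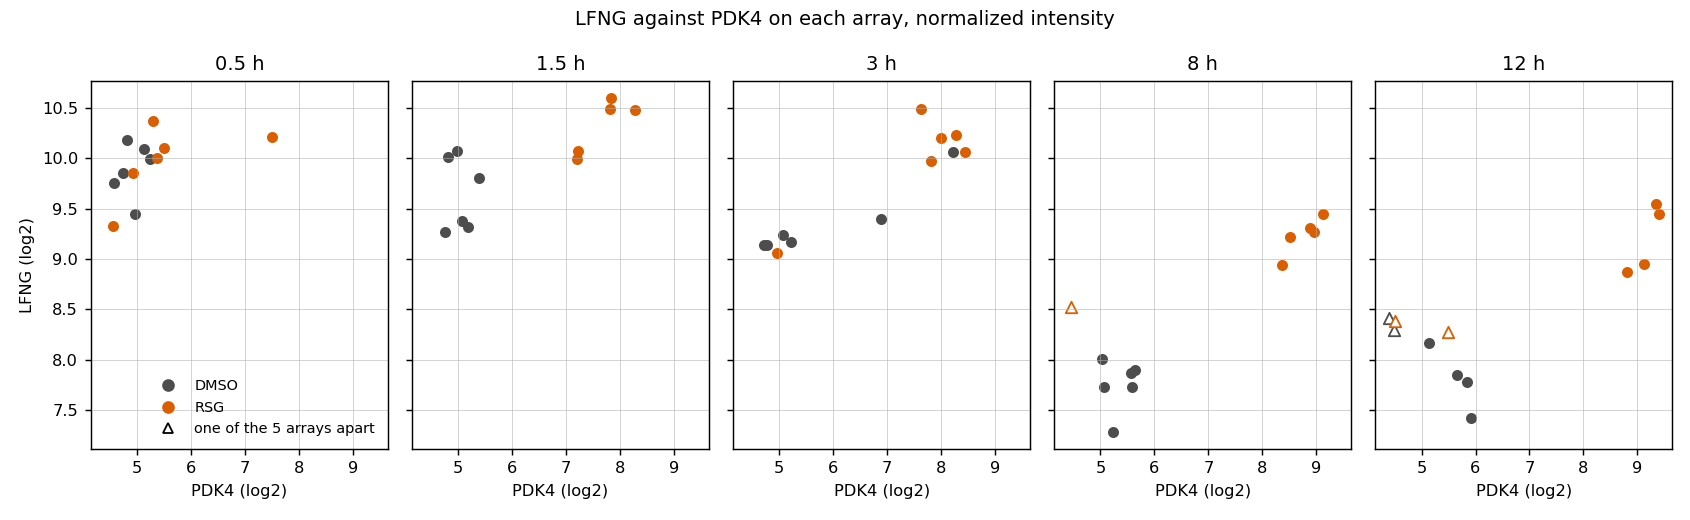
LFNG against PDK4 on each array (both log2 intensity), 1 panel per time, with DMSO in gray, RSG in orange and triangles for the 5 arrays apart. At 3 h 1 DMSO array (PDK4 8.21, LFNG 10.06) lies among the RSG arrays and 1 RSG array (4.95, 9.06) among the DMSO arrays.

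The other fringe enzymes changed over time in vehicle and were not called with RSG. MFNG (manic fringe) in DMSO had a median of 9.60 at 0.5 h, with a lowest array of 9.26 and a highest of 9.83, and a median of 8.94 at 12 h, with a range of 7.56 to 9.11. It fell by 1.06 from 0.5 to 12 h (SE 0.24, limma adjusted p = 0.000399) with 59 arrays and by 0.57 (SE 0.16, adjusted p = 0.00238) with 54. RFNG (radical fringe) dipped at 1.5 h, where the DMSO arrays read 9.30, 9.59, 9.66, 8.85, 9.16 and 9.09, against 9.67 to 10.14 at 0.5 h. The dip was 0.61 (SE 0.15, adjusted p = 0.0326) with 59 arrays and the same size (adjusted p = 0.0022) with 54, and on this probe RFNG was within 0.24 of its first level at later times. A second RFNG probe, detected on 58 of 59 arrays, differed at 8 h, where it fell by 0.72 (SE 0.17, adjusted p = 0.00115 with 59 arrays, and adjusted p = 0.000219 with 54), so the RFNG probes disagree there. Between RSG and DMSO, MFNG differed by -0.06 to 0.20 and RFNG by -0.26 to 0.13 over the 5 times in the 59 arrays, and neither passed the test at any time. RFNG at 12 h did not overlap between 4 RSG arrays (9.62 to 9.76) and 4 DMSO arrays (9.80 to 10.00), with a difference of -0.21 (SE 0.15, adjusted p = 0.714).

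Of the receptors, NOTCH1 (chr9:136494433-136546048) also fell over time. In DMSO it read 10.68, 10.94, 11.02, 11.40, 11.59 and 11.62 at 0.5 h and 10.62, 10.77, 10.26, 10.91, 9.87 and 10.64 at 12 h. The 2 groups overlapped at their edges. At 0.5 h replicates 1 to 3 all lay below replicates 4 to 6, and at 12 h they did not. NOTCH1 fell by 0.65 at 8 h (SE 0.17, adjusted p = 0.00271) and by 0.70 at 12 h (SE 0.17, adjusted p = 0.00091) against 0.5 h with 59 arrays, and by 0.83 (SE 0.17, adjusted p = 0.00011) at 12 h with 54. NOTCH2 was dimmer and more variable, between 6.75 and 8.49 over all arrays. Its difference from 0.5 to 12 h was -0.39 (SE 0.19, adjusted p = 0.111) with 59 arrays and -0.29 (SE 0.21, adjusted p = 0.298) with 54. The F over time called NOTCH2 with 59 arrays (adjusted p = 0.0425) and not with 54 (adjusted p = 0.128).

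NOTCH1 with RSG had the higher mean at each time, and no single time passed the test. At 8 h the RSG arrays read 10.95, 10.74, 10.55, 11.00, 10.92 and 10.96. The DMSO arrays read 10.71, 10.76, 10.80, 10.39, 10.41 and 10.30, and the groups overlapped. DMSO replicates 1 to 3 all lay above DMSO replicates 4 to 6, and the RSG replicates showed no such split. The difference was 0.15, 0.17, 0.33, 0.29 and 0.20 (SE 0.17 to 0.18) from 0.5 to 12 h, and its mean over the times was 0.23 (SE 0.08, adjusted p = 0.365) with 59 arrays. With 54 the mean was 0.26 (SE 0.07, adjusted p = 0.0368), the only call among the 9 genes tested against DMSO. It held in 31 of 54 fits that each left out 1 array, with values of 0.23 to 0.29. Limma called 0.347% of all genes over all times with 59 arrays and 2.54% with 54. NOTCH2 differed over all times by 0.12 (SE 0.09, adjusted p = 1) and 0.10 (SE 0.09, adjusted p = 0.802).

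JAG1, a ligand of the receptors, fell in vehicle. The DMSO arrays stood at 8.52, 8.53, 8.43, 8.57, 8.67 and 8.81 at 0.5 h, at 8.01, 8.07, 8.16, 8.09, 8.18 and 8.28 at 3 h, and at 7.77, 7.66, 7.55, 7.42, 7.37 and 7.23 at 8 h. None of these 3 groups overlapped with another, but how many of all genes did the same was not counted. At 12 h the arrays read 7.35, 7.59, 7.28, 9.32, 6.93 and 9.19, where 9.32 and 9.19 are the 2 arrays apart. JAG1 fell by 1.09 at 8 h (SE 0.30, adjusted p = 0.00436) with 59 arrays and by the same amount (SE 0.11, adjusted p = 1.39e-11) with 54. At 12 h the 2 sets of arrays gave different calls, -0.64 (SE 0.30, adjusted p = 0.0921) with 59 and -1.30 (SE 0.12, adjusted p = 1.57e-12) with 54. The fall at 3 h of 0.46 was likewise called in the 54 (SE 0.11, adjusted p = 0.00206) and not in the 59 (SE 0.30, adjusted p = 0.389). Against DMSO, JAG1 with RSG differed by -0.17, -0.11, -0.07, -0.17 and -0.16 (SE 0.11 to 0.14) in the 54 arrays, lower at each of the 5 times, with a mean of -0.14 (SE 0.05, adjusted p = 0.212). With 59 arrays the 8 h difference had the other sign, 0.13 (SE 0.30, adjusted p = 0.977).

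RBPJ, the DNA-binding subunit, was lower late in vehicle. Its DMSO arrays had a median of 9.61 at 0.5 h (9.39 to 9.73) and of 9.15 at 8 h (8.58 to 9.32). The fall at 8 h was 0.54 in both sets, with an adjusted p of 0.0199 (SE 0.18, 59 arrays) and 0.0123 (SE 0.17, 54 arrays). It was not called without DMSO 8 h replicate 4, where it was 0.44 (adjusted p = 0.0743 with 59 and 0.0506 with 54). At 12 h the fall was 0.54 (SE 0.18, adjusted p = 0.0153) with 59 and 0.40 (SE 0.20, adjusted p = 0.106) with 54, and without DMSO 12 h replicate 6 it was 0.46 (adjusted p = 0.0569) in the 59. With RSG the gene differed by -0.11 to 0.09 over the times in the 59 arrays. A second, dim RBPJ probe, detected on 41 arrays, fell in DMSO by 0.45 at 8 h and 0.72 at 12 h with 54 arrays (limma adjusted p = 0.0395 and 0.00259). With 59 arrays it was called at neither time (adjusted p = 0.171 and 0.278). The remaining RBPJ probe, detected on 31 arrays, was called at neither time in either set, so the RBPJ probes disagree.

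The target genes HES1, HES4 and HEY1 were dim in these cells. HES4 (chr1:998964-1000097) in DMSO read 5.49, 6.01, 6.05, 6.33, 5.89 and 6.26 at 0.5 h, and 4.69, 5.09, 4.83, 5.65, 5.14 and 5.64 at 8 h, when its probe was detected on 4 of 6 arrays. At 12 h it read 5.09, 4.83, 4.59, 12.11, 5.28 and 11.90. Among the 54 arrays HES4 fell by 0.83 at 8 h (SE 0.15, adjusted p = 7.51e-06) and by 1.06 at 12 h (SE 0.16, adjusted p = 5.43e-07). With 59 arrays, which include the 2 high ones, the 12 h difference was 1.29 upward (SE 1.01, adjusted p = 0.352).

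HES1 showed no called change over time (F adjusted p = 0.139 with 59 and 0.592 with 54), with DMSO medians of 5.52, 5.47, 5.51, 5.37 and 5.75 from 0.5 to 12 h. HEY1 was called over time in the 54 arrays (F adjusted p = 0.00576) and not in the 59 (adjusted p = 0.111). Its highest DMSO group without arrays apart was 1.5 h, at 4.84 to 5.40 with 4 of 6 arrays detected, while it was detected on 0 of 6 at 3 and at 8 h, so these levels are at background. Against DMSO, HES4 with RSG differed by -0.03 to 0.06 (SE 0.15 to 0.18) in the 54 arrays, HES1 by -0.25 to 0.16 and HEY1 by -0.23 to 0.30.

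**Figure D3:**
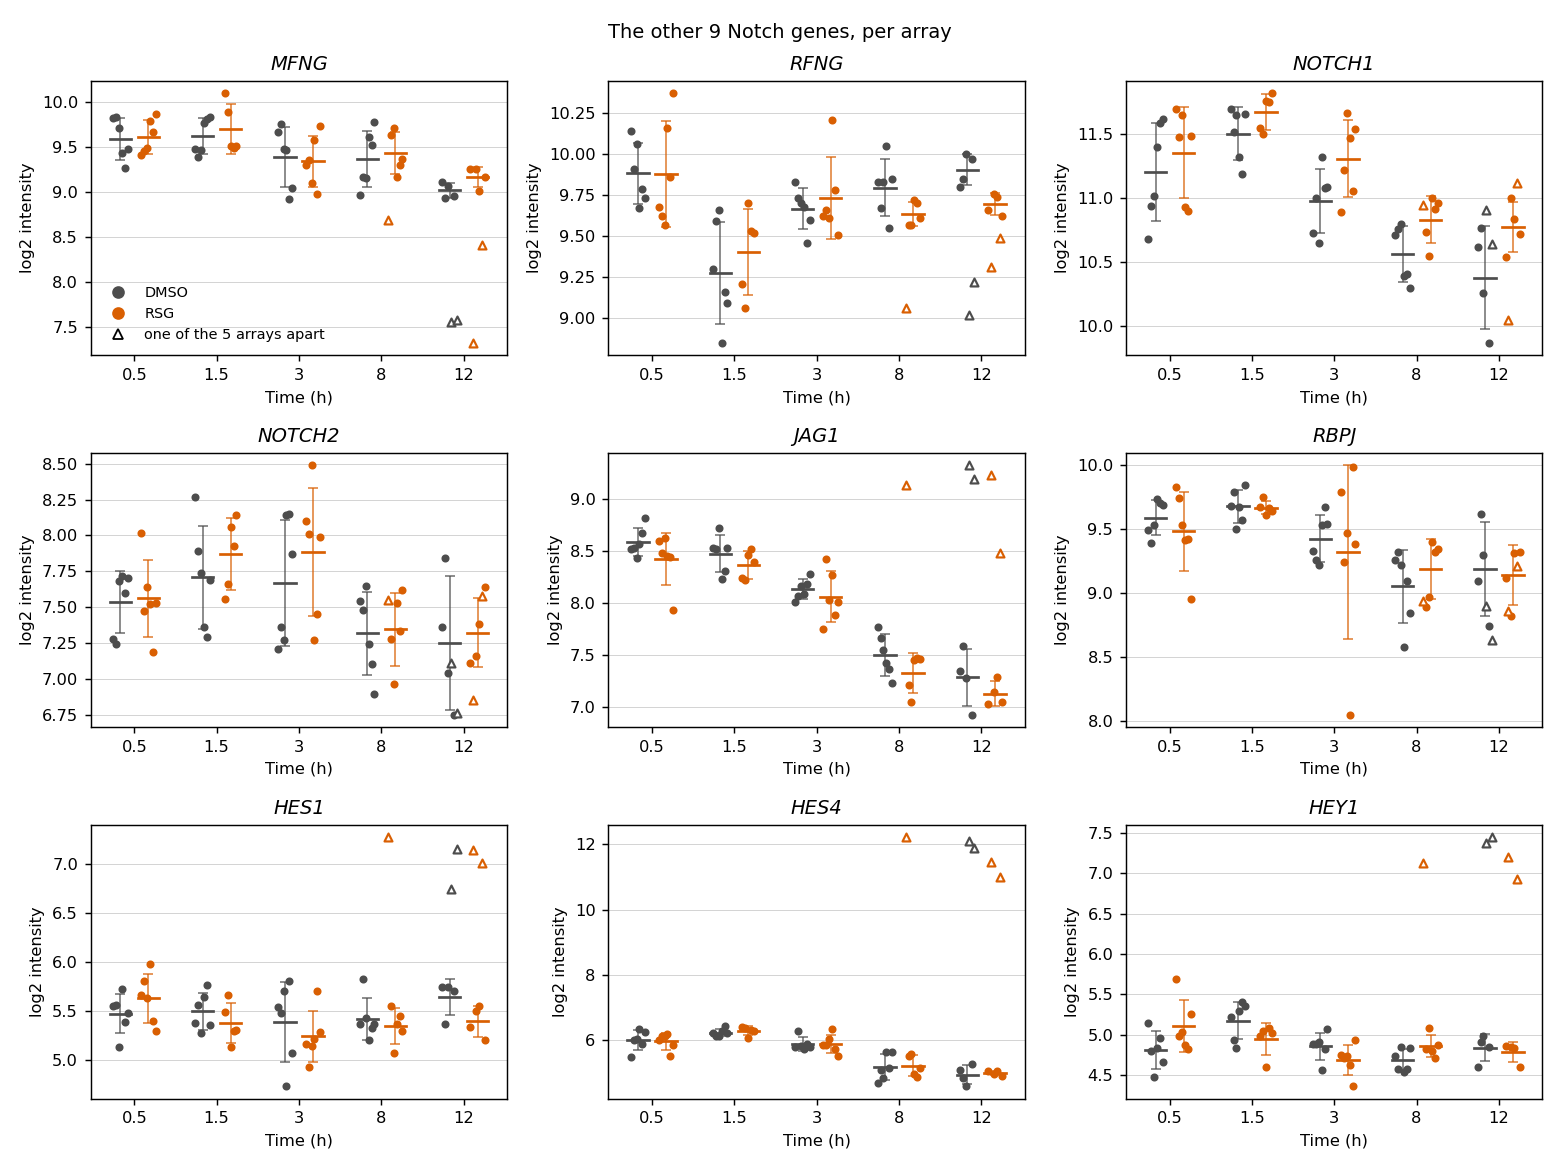
Normalized intensity (log2) of the 9 other genes on each array by hours of treatment, with DMSO in gray and RSG in orange. Triangles are the 5 arrays apart, bars give the mean and SD of the others, and each panel has its own scale. JAG1 falls from 8.43 to 8.81 at 0.5 h to 7.23 to 7.77 at 8 h in DMSO, and HES1, HES4 and HEY1 stand out on the arrays apart.

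Among the 9 genes other than LFNG, 45 comparisons of RSG with DMSO at a single time were made. With 59 arrays they ran from -0.26 (RFNG, 8 h) to 1.21 (HES4, 8 h, SE 1.01), and the lowest adjusted p was 0.934. With 54 arrays they ran from -0.25 (HES1, 12 h) to 0.40 (NOTCH1, 12 h), with SEs of 0.11 to 0.23, a lowest adjusted p of 0.439 and 3 unadjusted p under 0.05. The genes were called at none of the times, against a background of 0% of all genes at 0.5 h in both sets, 0% and 0.0521% at 1.5 h, and 0% and 0% at 3 h for 59 and 54 arrays. That background was 0.0955% and 1.15% at 8 h, and 0.0261% and 1.82% at 12 h. These p-values do not show that the groups were alike. None was called for an RSG effect that differed between times, a call given to 0% of all genes with 59 arrays and 0.399% with 54.

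**Figure D4:**
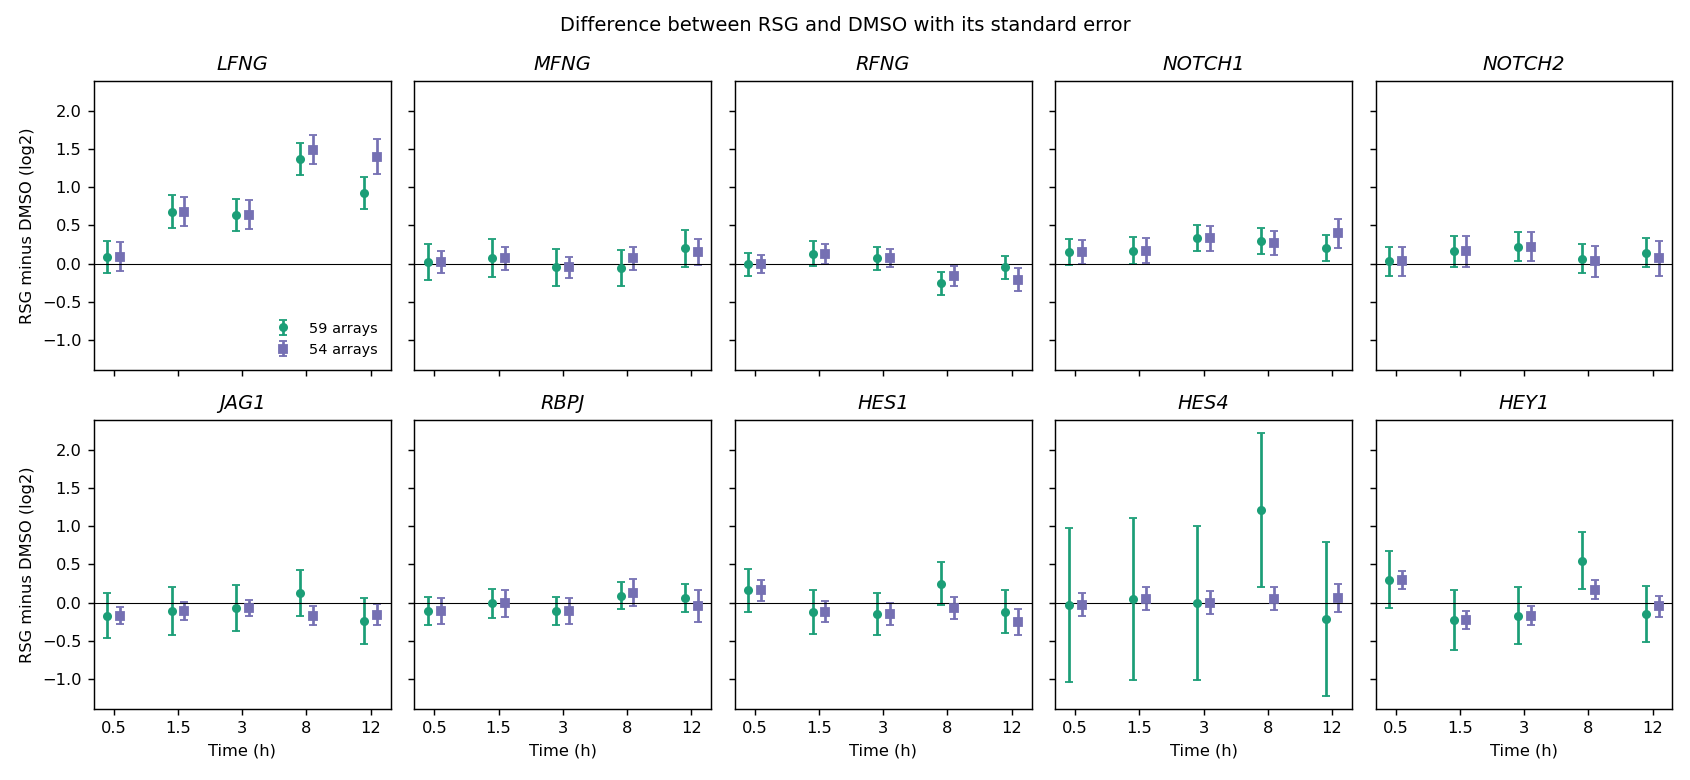
Difference between RSG and DMSO (log2, vertical axis) with its standard error at each time for the 10 genes, with 59 arrays (circles) and with 54 (squares). LFNG rises to 1.37 and 1.49 at 8 h, while the other genes lie between -0.26 and 0.55, except HES4 with 59 arrays at 1.21.

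The 5 arrays apart held a different Notch profile. HES4 read 12.11 and 11.90 on DMSO 12 h replicates 4 and 6, 12.22 on RSG 8 h replicate 1, and 11.47 and 11.01 on RSG 12 h replicates 2 and 5. On the other 54 arrays it lay between 4.59 and 6.44, so the distance between the medians was 6.83 from arrays of 8 and 12 h. It was chosen for this. HES1 on the same 5 arrays was 6.75, 7.16, 7.28, 7.15 and 7.02, against 4.73 to 5.98. HEY1 was 7.38, 7.45, 7.13, 7.20 and 6.93, against 4.36 to 5.69, and was detected on 5 of 5 and on 7 of 54. These 3 target genes were above every other array, under DMSO and RSG alike. The other 3 target genes tested were lower on the same arrays, HES6 at 6.91 to 7.89 against 9.02 to 10.17, HEYL at 5.58 to 6.66 against 6.83 to 8.08, and HEY2 at 5.95 to 6.44 against 6.43 to 9.52, where 1 end overlaps.

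JAG1 on these arrays was 9.32, 9.19, 9.13, 9.23 and 8.48, above the 6.93 to 7.77 of the other arrays of 8 and 12 h and, but for 8.48, above all 54. MFNG went the other way, with 7.56, 7.58, 8.69, 7.33 and 8.41, below every other array (8.92 to 10.09). LFNG was 8.29, 8.41, 8.52, 8.38 and 8.27, between the DMSO and RSG arrays of those times. RFNG (9.02 to 9.49) was below every other array of 8 and 12 h (9.55 to 10.05) and within the range of all 54. NOTCH1 (10.05 to 11.12), NOTCH2 (6.76 to 7.58) and RBPJ (8.63 to 9.21) lay within the range of the others. Of the 9 genes other than HES4, 2 were above and 1 was below all other arrays, and of all genes tested 769 (6.68%) were above and 978 (8.49%) below. The genes above include some that passed the filter only through these 5 arrays, such as the inflammatory and dendritic markers IL6, LAMP3 and CCR7. Beside these values stand the inflammatory and dendritic markers given above, and their part was not tested.

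**Figure D5:**
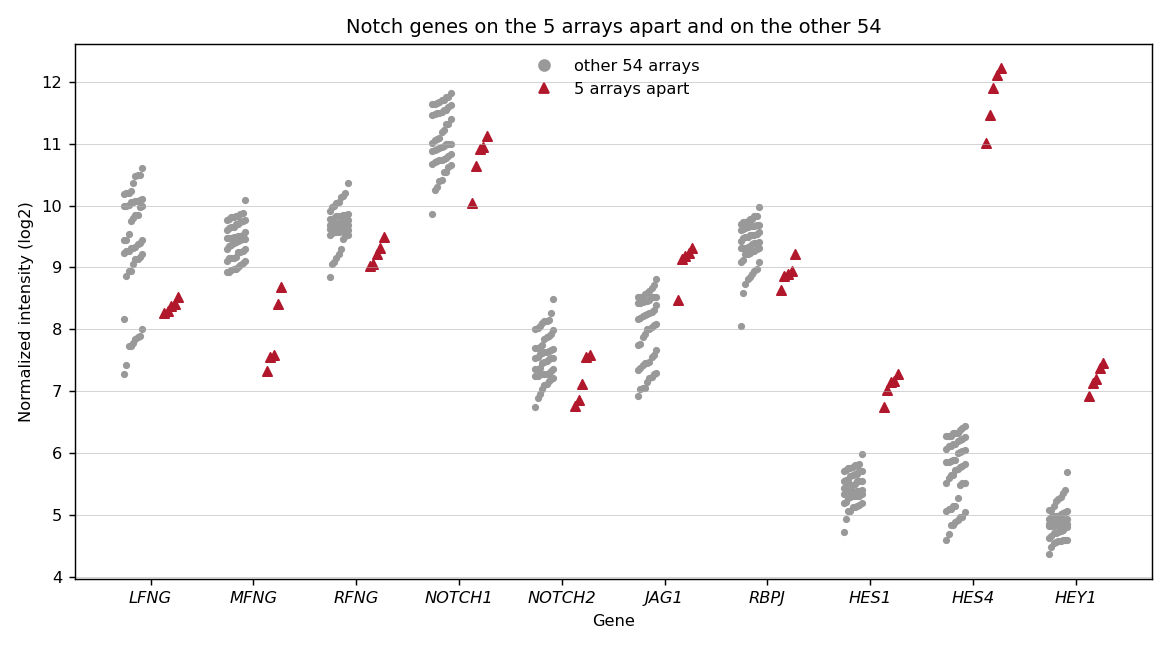
Normalized intensity (log2) of the 10 genes on the 5 arrays apart (red triangles) and the other 54 (gray points). HES4 lies at 11.01 to 12.22 against 4.59 to 6.44, HES1 and HEY1 are above and MFNG is below all other arrays.

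Outside the 10 genes, further pathway genes showed the same contrast, and they were picked after their values had been seen. The ligand DLL4 read 7.66 to 9.32 on the 5 arrays and was detected on 0 of the other 54, where it lay at 4.33 to 5.09. It passed the filter only through these 5 arrays, so its place above the others is no separate finding. NOTCH4 was 5.92 to 6.51 against 4.60 to 5.56. The ligand JAG2 was lower, 7.23 to 7.55 against 7.90 to 9.41, and so was PSEN2, a catalytic subunit of the gamma-secretase that frees the receptor's intracellular part, at 8.90 to 9.87 against 11.38 to 12.27.

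A list of 73 pathway genes gave the setting of the 10. On the array were 65, of which 54 passed the filter, 53 without LFNG. Against DMSO, 0 of the 53 were called at any single time in limma, with 59 or 54 arrays, and at an unadjusted p under 0.05 there were at most 5. Calls were rare among all genes too, at most 0.0955% at a single time with 59 arrays and 1.82% with 54. The absence of calls thus sets the list apart from other genes in no way. The median difference of the list was between -0.05 and 0.03 at each time, and that of all genes between -0.02 and 0.01. Over all times the 53 gave 0 calls with 59 arrays and 3 with 54, each higher with RSG. They were NOTCH1, the ligand DLL1 (0.29, SE 0.07, adjusted p = 0.0136) and the corepressor TLE3 (0.32, SE 0.08, adjusted p = 0.00863). These 3 are 5.66% of the list, beside 2.54% of all genes with 54 arrays and 0.347% with 59. With 59 arrays DLL1 had 0.25 (adjusted p = 0.183) and TLE3 0.26 (adjusted p = 0.28). The ligand JAG2 and HEYL, a target gene, were not called, with 12 h differences of -0.35 (adjusted p = 0.444) and -0.40 (adjusted p = 0.066) in the 54 arrays.

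The F over the DMSO times called 31 of the 53 with 59 arrays and 34 with 54, which are 58.5% and 64.2%, beside 48.4% and 60% of all genes. Of the 9 genes named above beside LFNG, 6 and 7 were called, against the same background. From 0.5 to 12 h, 10 of the 53 rose and 13 fell with 59 arrays, and 9 rose and 13 fell with 54. Over all genes 17.1% rose and 14.6% fell with 59 arrays, and 21.3% and 16.1% with 54. At the earlier times the share of all genes that fell was 0.408% at 1.5 h, 3.92% at 3 h and 9.74% at 8 h with 59 arrays, and 3%, 9.08% and 15.3% with 54.

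From 0.5 to 12 h 14.6% of all genes fell with 59 arrays and 16.1% with 54. By role, 3 of 8 genes for receptor and ligand processing fell over the same span with 59 arrays and 4 with 54. Among them was ADAM17, a protease that cleaves Notch and TNF, by 1.19 (SE 0.14, adjusted p = 1.11e-09, 59 arrays). HEY2, a target gene, fell by 2.37 (SE 0.20, adjusted p = 1.11e-13). NUMB, an inhibitor of the receptor, fell by 1.04 (SE 0.13, adjusted p = 6.7e-09), and the coactivator MAML2 by 1.18 (SE 0.18, adjusted p = 5.69e-07). Risers were the ubiquitin ligase MIB1, which acts on ligands, by 0.63 (SE 0.17, adjusted p = 0.00247), and the histone deacetylase HDAC2 by 0.40 (SE 0.09, adjusted p = 0.000584). These 6 were picked after their values had been seen. Of 9 corepressors 3 rose and 0 fell in both sets, where 17.1% of all genes rose with 59 arrays and 21.3% with 54. Of 8 trafficking and ubiquitin ligase genes 4 rose and 2 fell with 59 arrays, and 3 rose and 2 fell with 54. Counts this small show no trend of a role.

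The genes whose levels were most like LFNG over the 54 arrays were RARA (Pearson r = 0.916), FGR (0.912), RND3 (0.901), CAV1 (0.888) and EFHD2 (0.869). RARA is a retinoic acid receptor and FGR a Src-family kinase of myeloid cells. Over 59 arrays they were FGR (0.866), PEX19 (0.841), RARA (0.836), VLDLR (0.831) and EFNB2 (0.827). For HES4 over 59 arrays they were CD40 (0.981), RRAD (0.977), SAT1 (0.976), BCL3 (0.975) and TNFAIP3 (0.972), where the 5 arrays apart were included. Over the 54 they were LANCL2 (0.908), KMT5B (0.907), CIRBP (0.891), RNF126 (0.890) and CASTOR3P (0.887). The lists of HES4 for 59 and 54 arrays thus share no gene. Among the 10, LFNG was most like NOTCH1 (r = 0.82 over 54 arrays), and HES4 went with JAG1 (0.77), LFNG (0.68) and NOTCH1 (0.68). The arrays share groups, so that a common course over time is part of every one of these correlations.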

How the data were processed

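RNA from PMA-differentiated THP-1 cells was measured on 59 bead arrays in 10 groups of treatment and time, grouped by their labels. The deposited signal table holds mean bead intensity per probe as the authors exported it, without background subtraction or scaling, and a deposited detection p-value for each. A second deposited table holds intensity that the authors had background-subtracted and scaled by average normalization in BeadStudio. Of 24531 probes 24526 are in both tables, and the 5 others were left out.

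Raw intensities were normalized with neqc (limma 3.58.1, R 4.3.3, offset 16), which corrects background from the detection p-values, quantile-normalizes and takes log2. A probe was kept where 5 or more arrays detected it (detection p under 0.01). The platform annotation gave 1 symbol for 21834 probes and none for 2692. Each gene was read by its brightest probe, which gave 11515 genes. A mean was fitted per group in limma, with moderated two-sided tests and Benjamini-Hochberg adjustment over all 11515 genes at 0.05. The 54 arrays leave out those with a median correlation under 0.95. The number of arrays limits the precision.

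The members, the lists and the 5 arrays apart were chosen with earlier results of these data known. By rule the named genes are the 10 members, PDK4 and ANGPTL4, and pathway genes called in an RSG comparison (up to 4 per role). To these come up to 2 per role that were not called, and the 5 genes most like LFNG and HES4. Further pathway genes named for their change over time or their level on the 5 arrays apart fall outside this rule. Except for the target genes tested on those arrays, they were picked after their values had been seen. The script was tested on simulated data. Same-numbered arrays of both treatments gave residual correlations of -0.36 to -0.20, so they were not alike. The source of the negative values was not tested. The alternatives were other normalizations, filters, probe summaries, weights and priors, a fit of the groups compared only, and each array left out. Blocks were replicate number, high background and the side of the main residual component, the last of them not planned. A plain linear model of the group means was run without moderation, and the study's own model of treatment and time was not refitted. The dose and time of RSG follow the study's methods and labels.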

Additional observations from a re-analysis of the deposited data

Results flagged for a closer look

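Among 100 groups of a gene, treatment and time, 12 held an array far from the others of its group by Dixon's ratio, where chance gives about 1 in 20, and 5 of the 12 fell on RSG 8 h replicate 1, an array apart. On that array RFNG stood at 9.06 (next array 9.57), JAG1 at 9.13 (next 7.47), HES1 at 7.28 (next 5.55), HES4 at 12.22 (next 5.59) and HEY1 at 7.13 (next 5.08).

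Of the rest, 2 lie in LFNG at 3 h. DMSO replicate 4 had an LFNG level of 10.06 where the next array had 9.40, and RSG replicate 2 had 9.06 where the next had 9.97. PDK4 on the same arrays was 8.21 and 4.95. Whether these arrays carry the treatment of their label was not tested.

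The other 5 stood alone. RFNG was 10.21 on RSG 3 h replicate 4 (next 9.78) and JAG1 was 7.93 on RSG 0.5 h replicate 6 (next 8.44), an array on which PDK4 was 7.50 and ANGPTL4 8.83. HES1 was 5.83 on DMSO 8 h replicate 2 (next 5.43), HES4 6.28 on DMSO 3 h replicate 2 (next 5.89) and HEY1 4.60 on RSG 1.5 h replicate 3 (next 4.98), where its probe is at background.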

How the results depend on the processing

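Over 15 other settings the results gave 2755 values that kept their direction and side of the threshold or moved within the spread of replicates. Of the others, 6 moved, 2 reversed, 33 gained a call and 13 lost one, and with each of 59 arrays left out in turn 2526 kept, 2 moved, 13 gained a call and 39 lost one. The sign of results without a call changed in 209 of 4786 tested values. The cause of these changes was not tested, except where the arrays apart are left out.

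The LFNG difference at 12 h was 1.40 without the 5 arrays apart. With the mean of the gene's probes, which averages in a probe near background, it was 0.72 at 8 h with 59 arrays, 0.78 at 8 h and 0.87 at 12 h with 54. The LFNG fall in DMSO from 0.5 to 3 h, -0.53 with an adjusted p of 0.106, was called in 54 arrays (-0.53, adjusted p = 0.0357) and with array weights (-0.54, adjusted p = 0.0121). In the 54 it was lost without a probe filter (-0.53, adjusted p = 0.0537) and with the mean of probes (-0.18, adjusted p = 0.387). With 1 of its 12 arrays left out, the 59 gave a call once, without DMSO 3 h replicate 4, and the 54 gave 5, with the call lost without DMSO 0.5 h replicates 4, 5 or 6 or DMSO 3 h replicates 2, 3, 5 or 6. Leaving out 1 array gave -0.67 (without DMSO 3 h replicate 4) to -0.47 (without DMSO 0.5 h replicate 4) in both sets.

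HES4 from 0.5 to 12 h in DMSO reversed from 1.29 to -1.06 in 54 arrays and to -0.91 with array weights. With array weights 1 pathway gene, HEYL, was called at 8 h and 1, HEYL again, at 12 h in the 54 arrays. HEYL was also called at 12 h without RSG 12 h replicate 6, and DLL1 at 3 h without DMSO 3 h replicate 4, so the counts ran from 0 to 1. RFNG at 1.5 h with 59 arrays was not called with the authors' scaled table (-0.61, adjusted p = 0.0822) and when 1 array was left out it was called in 6 of 12 fits, not without DMSO 0.5 h replicates 1, 2 or 3 or DMSO 1.5 h replicates 4, 5 or 6 (-0.52 to -0.60). RBPJ at 8 h in DMSO was not called with that table (-0.37, adjusted p = 0.18 with 59 and 0.124 with 54).

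With replicate number as a block, the LFNG difference was 0.09, 0.71, 0.64, 1.37 and 0.92 from 0.5 to 12 h, and NOTCH1 over all times in the 54 arrays had 0.25 (adjusted p = 0.0694), which is not called. The block left 0 pathway genes called at each time, and 6 members called over time in DMSO with 59 arrays where 7 were without it. Same-numbered arrays had residual correlations of -0.36, -0.27, -0.20, -0.30 and -0.30, against 0.07, 0.05, 0.04, 0.06 and 0.12 for other numbers. With group means removed these 2 kinds of value depend on each other. Same-numbered arrays were thus not alike, but the sign was the same at each time. Replicate number therefore carries some structure, whose source was not tested. No array depth limits these values. Signal over background does, for HEY1, HES1, HES4 and the second LFNG probe.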
